A study of Mus musculus with 48 samples.

Results

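LPS and CpG B, ligands of different innate immune receptors, were set against each other in GM-CSF cultures of mouse bone marrow, which the labels call moDC (monocyte-derived dendritic cells). LPS is lipopolysaccharide, given at 100 ng/ml, and CpG B is a DNA oligonucleotide, given at 5 µM. The members were chosen by their labels alone. They are 8 of the 48 samples of the series, with 1 library for each ligand at 1, 2, 4 and 6 h, so that every LPS library had a CpG B library of the same time. All were grown from C57BL/6 bone marrow, from tibia and femur of female C57BL/6J mice 6 to 10 weeks old, and none carried an added allele. The levels of 1 untreated moDC library, and of 4 moDC libraries given the compound labelled PAM, are set beside them where they help to read a difference. The same contrast in Flt3L cultures, which the labels call pDC (plasmacytoid dendritic cells), holds 4 libraries a ligand. Neither culture is described as sorted. The labels do not say whether the libraries came from separate cultures or animals. The p-values therefore rest on how far ligand differences varied over the 4 times, in the gene itself and across all genes tested. That variation may be technical in part.

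Dendritic cells sense microbes and start immune responses. LPS from bacterial cell walls is sensed at the cell surface by Toll-like receptor 4 (TLR4) with its co-receptors MD-2 and CD14, and after uptake TLR4 signals a second time from endosomes through the adaptor TRIF, which leads to interferon beta. CpG DNA is sensed by TLR9 inside endosomes and signals through the adaptor MyD88. Both routes activate NF-kB, the factor behind inflammatory cytokines, and interferon beta acts back on the cells and switches on antiviral genes through a promoter element called ISRE.

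Levels are whole counts of 3′-end reads per gene symbol, scaled to 1000000 counts a library (CPM). The 8 libraries held 308754 to 398351 counts, the CpG B library at 6 h being the smallest. A single count was worth 2.51 to 3.24 CPM. Where no read was counted, the true level may still reach 7.53 to 9.72 CPM, depending on the library (3 counts, counting error only). Differences are log2 fold changes of LPS over CpG B, from edgeR's quasi-likelihood test with time as a block. Their standard errors (SE) are derived from that test, which draws each gene's spread over the 4 time pairs towards that of all genes. The shared part had 28.5 degrees of freedom and the gene's own part 3. An SE can thus be smaller or larger than the spread of the gene's own 4 pairs. Calls needed a fold of 2 or more and an adjusted p (Benjamini-Hochberg, over all genes tested) below 0.05.

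Of the label's cell type, 16 of 20 monocyte and macrophage markers passed the filter on low levels, with a summed level of 15910 to 34390 CPM with LPS and 17740 to 37090 CPM with CpG B. Conventional dendritic cell markers summed to 11090 to 18400 CPM with LPS and 9566 to 16670 CPM with CpG B. Markers of neutrophils (13 of 15 passing, 10510 to 13940 CPM over the 8 libraries) and of eosinophils, basophils and mast cells (10 of 18, 2290 to 2869 CPM) were present in both groups. Markers of B cells stayed between 6.48 and 15.8 CPM and those of NK cells between 2.63 and 7.91 CPM. The defining B cell genes Blk, Ebf1 and Vpreb3 and the NK cell genes Prf1, Eomes and Klre1 were at 0 in all 8 libraries. Over the 4 times, none of the 58 marker genes tested was called by edgeR or by DESeq2, and 8 had an unadjusted p below 0.05. Of all 6626 genes tested, edgeR called 1.1% and 960 had an unadjusted p below 0.05. Late, at 4 and 6 h, the monocyte markers Cd14 (1.12) and Ccr2 (-1.63) and the neutrophil marker Lcn2 (1.03) were called by edgeR. The part of these cells in the results was not tested. In bulk samples fewer cells of a type and less RNA per cell cannot be told apart.

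Over the 4 times, 73 of 6626 genes tested were called (1.1%). Of these, 62 were higher with LPS (0.936%) and 11 were higher with CpG B (0.166%). A gene was tested where at least 2 libraries reached 20 CPM. In 10 of the 62, fewer than 2 CpG B libraries did, so these genes entered the test through LPS. None of the 11 entered through CpG B in this way. All counts over the 62 include those 10. With scaling by column totals the split was 49 to 19. The 73 calls are 71 distinct sets of counts, since Nos1ap shares its counts with 1700015E13Rik and Slx1b shares its counts with Giyd1. The ligand difference had the same sign at all 4 times in 53 of the 62 and in 9 of the 11. LPS was above CpG B in all 4 pairs in 9.92% of all genes tested, and CpG B above LPS in 12%. As the call reads the same 4 pairs, the counts among the calls are a description and no support for them. The median log2 fold change of all genes tested was -0.0091, and -0.093 with column totals, so a direction close to 0 depends on the scaling. The calls that held whichever of the 4 time pairs was left out were 14: Inhba, Rsad2, Oasl1, Psd, Sdc4, Chka, Lars2, Hdc, Mmp13, Purb, Pabpn1, H2-M2 and the pair Nos1ap and 1700015E13Rik. All but Sdc4 were also called with DESeq2 and with column totals. DESeq2 gave an adjusted p to 44 of the 73 calls and called 22 of them. Leaving out the 4 h pair lowered the calls to 25 and leaving out the 6 h pair raised them to 114, and with no time block in the model no gene was called (368 had an unadjusted p below 0.05).

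**Figure D1:**
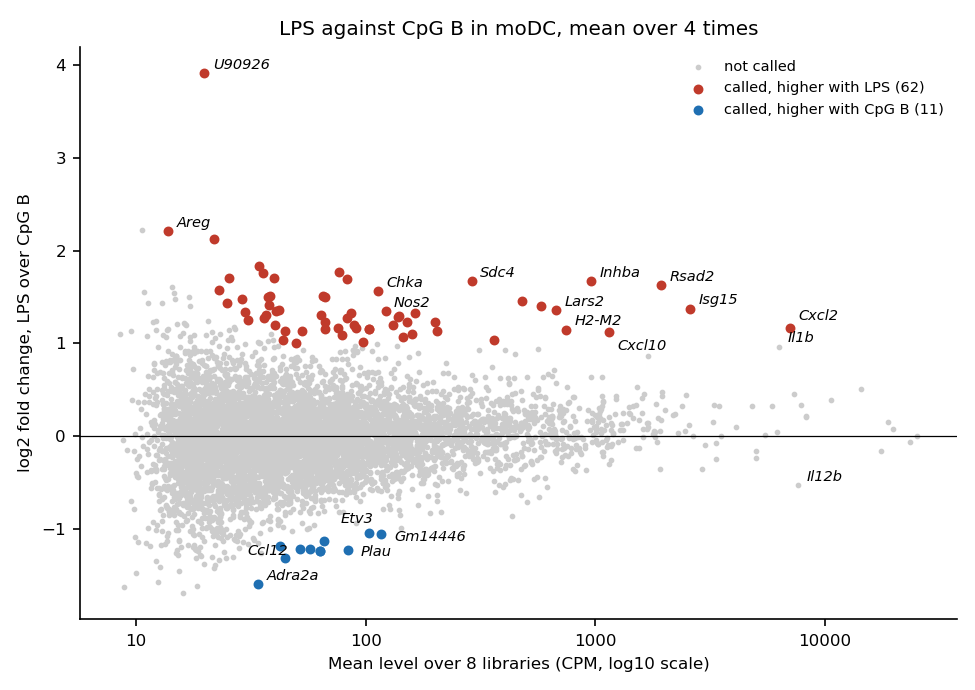
Each point is 1 of the 6626 genes tested, with its mean level over the 8 libraries (CPM, log10 scale) and its log2 fold change of LPS over CpG B (mean over 4 times). Red points are the 62 genes called higher with LPS and blue points the 11 called higher with CpG B. The labelled genes Rsad2, Isg15, Inhba and Cxcl2 lie among the red points of high level, and the blue points lie at low to middle levels.

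Promoter sequences of genes named below show where the letters of the ISRE (GAAA, any 2 bases, GAAA) and of an NF-kB site (GGG, any 5 bases, CC) fall, searched on both strands. They are from RefSeq (GRCm38.p6), matched by symbol, and run 5′ to 3′ on the gene's strand over the 250 bases before the annotated start. Capitals mark the matches, including overlapping ones. Rsad2, Isg15 and Cxcl10 are interferon-stimulated genes that were higher with LPS, Gm14446 is an interferon-stimulated gene that was higher with CpG B, and Cxcl2 is a chemokine gene that was higher with LPS. They lie at chr12:26456453-26456702 (minus strand), chr4:156200819-156201068 (minus), chr5:92348890-92349139 (minus), chr19:34601969-34602218 (minus) and chr5:90903649-90903898 (plus), in that order.
Rsad2: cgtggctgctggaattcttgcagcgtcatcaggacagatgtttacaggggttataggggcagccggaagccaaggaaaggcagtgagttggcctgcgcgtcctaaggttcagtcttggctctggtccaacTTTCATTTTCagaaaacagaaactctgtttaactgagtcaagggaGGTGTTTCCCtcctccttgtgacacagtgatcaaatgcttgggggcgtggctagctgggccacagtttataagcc
Isg15: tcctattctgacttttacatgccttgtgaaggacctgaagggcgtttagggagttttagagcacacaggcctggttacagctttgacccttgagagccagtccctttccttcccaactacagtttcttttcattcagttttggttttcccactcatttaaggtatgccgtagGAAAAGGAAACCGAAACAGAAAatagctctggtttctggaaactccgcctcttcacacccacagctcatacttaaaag
Cxcl10: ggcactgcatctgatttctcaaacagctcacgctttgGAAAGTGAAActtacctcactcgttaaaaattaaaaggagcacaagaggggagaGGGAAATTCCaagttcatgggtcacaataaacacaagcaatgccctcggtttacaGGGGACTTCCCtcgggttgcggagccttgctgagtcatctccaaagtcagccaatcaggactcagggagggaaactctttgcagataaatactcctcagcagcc
Gm14446: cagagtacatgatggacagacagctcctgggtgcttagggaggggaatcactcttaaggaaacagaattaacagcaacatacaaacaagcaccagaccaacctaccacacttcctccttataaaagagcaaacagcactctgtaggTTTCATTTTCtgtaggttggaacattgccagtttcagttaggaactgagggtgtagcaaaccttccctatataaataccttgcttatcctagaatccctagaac
Cxcl2: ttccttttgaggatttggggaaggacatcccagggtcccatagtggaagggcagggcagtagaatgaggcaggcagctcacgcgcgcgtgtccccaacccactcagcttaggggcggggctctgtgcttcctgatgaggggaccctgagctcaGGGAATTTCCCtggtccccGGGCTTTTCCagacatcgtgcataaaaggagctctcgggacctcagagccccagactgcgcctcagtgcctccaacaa
The search window ran on to 50 bases after the start. In it, 9 of 54 promoters of genes called higher with LPS held the ISRE letters (16.7%), against 191 of 5335 promoters of the genes tested (3.58%) and 3.44% of all 32851 promoters of the reference table. Among interferon-stimulated antiviral genes 14 of 28 promoters held them (50%). The letters of the NF-kB site were in 66.7% of the promoters of genes higher with LPS and in 68.6% of those of the genes tested. Of the 6 promoters found for genes called higher with CpG B, 1 held the ISRE letters, that of Gm14446. Rsad2 has 1 ISRE match and 1 NF-kB match, Isg15 has 3 overlapping ISRE matches and no NF-kB match, and Cxcl2 has 3 NF-kB matches and no ISRE match. A match is a run of letters and not a measured site.

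The receptors of both ligands did not differ by the call rule. Tlr4, the LPS receptor, was at 58.0, 45.3, 19.4 and 10.0 CPM at 1, 2, 4 and 6 h with LPS and at 68.5, 39.2, 24.0 and 16.2 CPM with CpG B, against 107 CPM untreated. The levels with both ligands were below the untreated level at every time, and the difference between ligands was -0.08 ± 0.31 (log2 ± SE, edgeR's adjusted p = 0.935, n = 4 pairs). Tlr9 was at 10.1 to 22.2 CPM with LPS and at 15.8 to 24.0 CPM with CpG B, which is at most a few times the level that a count of 0 allows. Ly96, which encodes the MD-2 co-receptor, was at 13.2 to 40.2 CPM with LPS and at 18.4 to 33.6 CPM with CpG B.

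Cd14 encodes the co-receptor that hands LPS to TLR4. It was at 517, 954, 934 and 801 CPM with LPS and at 545, 644, 541 and 330 CPM with CpG B, against 174 CPM untreated. All 8 libraries were above the untreated one, and LPS was the higher at 2, 4 and 6 h. The difference averaged over the times missed a fold of 2 (0.72 ± 0.15, adjusted p = 0.0043 by edgeR), and that over 4 and 6 h passed it (1.12, adjusted p = 7.4e-05) but fell to 0.94 without the 6 h pair. With PAM it was at 345, 827, 919 and 916 CPM. Of the lists of LPS sensing genes (18 tested) and CpG sensing genes (16 tested), no gene was called over the 4 times by edgeR or DESeq2, and 3 and 2 genes had an unadjusted p below 0.05. Of all 6626 genes tested, 960 had such a p and 1.1% were called by edgeR.

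Interferon-stimulated antiviral genes were the largest list tested and had the most calls. By share of members called, the chemokines (4 of 19) and the prostaglandin and lipid mediator genes (2 of 13) stood higher. Of the 40 antiviral genes, all tested, 6 were higher with LPS (Rsad2, Ifi205, Oasl1, Isg15, Eif2ak2 and Ifi203) and none was higher with CpG B. The background was 0.936% of genes tested. The median of the antiviral list was close to that of all genes, at 0.08 against -0.0091, with 24 members above 0 and 16 below. Of the members 13 had an unadjusted p below 0.05, 11 of them higher with LPS, against 960 of the 6626 genes tested in either direction. LPS was the higher in all 4 pairs in 10 members. The list's median log2 ratio was -0.065 at 1 h, 0.40 at 2 h, 0.25 at 4 h and 0.027 at 6 h.

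Rsad2 encodes viperin, an enzyme that blocks viral replication. It was at 58.0, 871, 5204 and 4526 CPM with LPS and at 18.4, 109, 2045 and 2620 CPM with CpG B, against 27.4 CPM untreated. LPS was the higher at every time, and both ligands had brought the gene far above the untreated level by 4 h. The difference was 1.63 ± 0.20 (adjusted p = 4.0e-06), and it lay between 1.21 and 2.06 when a pair was left out. With PAM the gene stayed at 12.2 to 50.3 CPM.

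Oasl1 encodes an oligoadenylate synthetase-like protein that restrains translation of Irf7 in mice. It was at 29.0, 398, 1209 and 1012 CPM with LPS and at 13.2, 56.0, 544 and 564 CPM with CpG B, with a difference of 1.46 ± 0.19 (adjusted p = 1.6e-05 by edgeR). Isg15 encodes a ubiquitin-like protein that is joined to other proteins during viral infection. Its levels were 240, 1811, 5234 and 6095 CPM with LPS and 81.6, 308, 2871 and 4162 CPM with CpG B, against 119 CPM untreated. In both genes LPS was the higher at every time. The difference of Isg15 was 1.38 ± 0.19 (adjusted p = 2.2e-05), but it was 0.95 without the 2 h pair, under a fold of 2, and its adjusted p with DESeq2 was 0.053.

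Eif2ak2 encodes PKR, a kinase that stops translation on sensing double-stranded RNA. It was at 87.0, 78.1, 272 and 402 CPM with LPS and at 21.1, 30.8, 195 and 191 CPM with CpG B, against 69.7 CPM untreated. At 1 and 2 h the CpG B libraries were under the untreated level and the LPS libraries were not. The difference was 1.10 ± 0.20 (adjusted p = 0.00092 by edgeR), and 0.98 without the 1 h pair. Ifi205 and Ifi203, of the family of interferon-induced HIN-200 proteins, differed by 1.51 ± 0.31 and 1.06 ± 0.23. Without the 4 h pair their adjusted p was 0.27 and 0.25, and Ifi205 differed by 2.40 without the 6 h pair. Genes of this family are similar in sequence, so reads could have been split between them.

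Ifit3 and Gm14446 stood on the other side of zero. Both belong to the family of interferon-induced proteins with tetratricopeptide repeats, and Gm14446 is now named Ifit1bl1. Gm14446 was at 2.64, 2.52, 119 and 163 CPM with LPS and at 0, 5.60, 306 and 337 CPM with CpG B. At 4 and 6 h it was the CpG B libraries that were the higher. The difference was -1.05 ± 0.24 (adjusted p = 0.0085), and its adjusted p was 0.30 without the 4 h pair. Ifit3 was at 485 and 710 CPM at 4 and 6 h with LPS and at 847 and 1066 CPM with CpG B, which was not called (-0.55 ± 0.16, adjusted p = 0.069). The interferon-induced genes therefore did not all lean to 1 ligand.

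Ifnb1 encodes interferon beta and was the only 1 of 18 interferon genes in the table to pass the filter. It was at 7.91, 42.8, 13.9 and 0 CPM with LPS and at 7.90, 30.8, 42.0 and 42.1 CPM with CpG B, and at 0 in the untreated library and in all 4 PAM libraries. With LPS the level was highest at 2 h and had dropped by 4 h, while with CpG B it was as high at 6 h as at 4 h. It passed the filter through its CpG B libraries, and its late difference (-2.50) and early difference (0.48) are given with no test. All these levels rest on few counts.

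**Figure D2:**
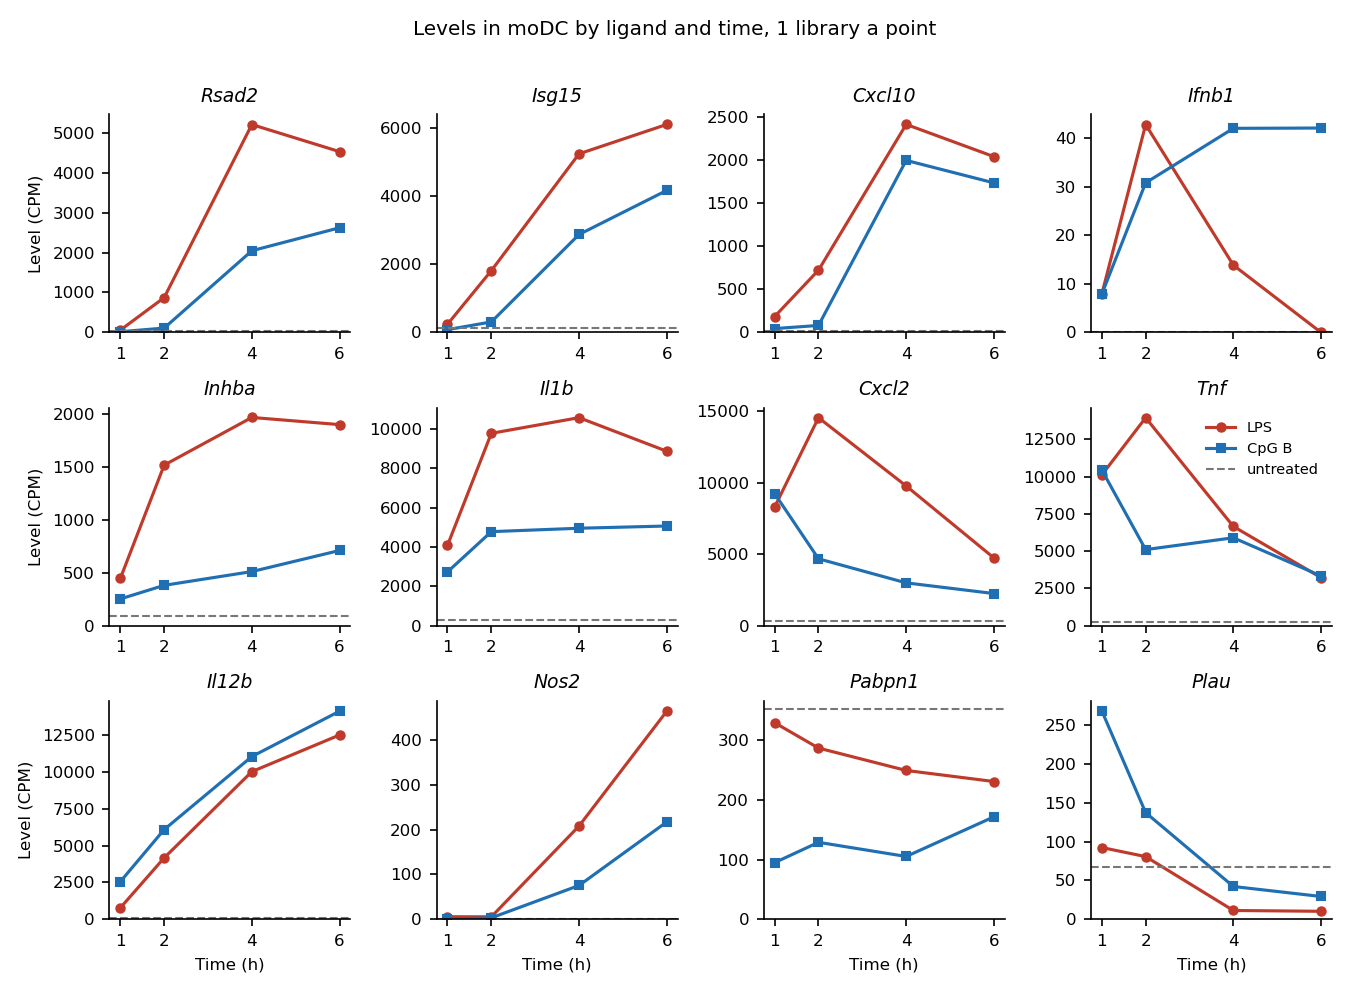
Level in CPM (linear scale) at 1, 2, 4 and 6 h of 12 genes in moDC with LPS (red circles) and CpG B (blue squares), 1 library a point, with the untreated library as a dashed line. Rsad2, Isg15, Inhba and Pabpn1 are above CpG B at every time with LPS, Il12b and Plau are below it, and Ifnb1 crosses over between 2 and 4 h.

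A few inflammatory cytokines were higher with LPS. Of 21 cytokine genes tested, Inhba and Csf3 were called higher with LPS, against 0.936% of genes tested, and none was called higher with CpG B. The list's median was 0.38 and 17 of its members lay above 0, against 3230 of the 6626 genes tested.

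Inhba encodes the subunit of activin A, a secreted factor of the TGF-beta family. It was at 446, 1514, 1963 and 1895 CPM with LPS and at 253, 381, 511 and 709 CPM with CpG B, against 92.1 CPM untreated. The difference was 1.67 ± 0.15 (adjusted p = 1.9e-08), and it lay between 1.51 and 1.89 when a pair was left out. PAM brought the gene to 182, 808, 1299 and 1005 CPM. Csf3 encodes G-CSF, which drives neutrophil production. It was at 5.27, 57.9, 91.5 and 62.8 CPM with LPS and at 5.27, 16.8, 27.0 and 32.4 CPM with CpG B, with a difference of 1.50 ± 0.33 (adjusted p = 0.0075, and 0.093 and 0.22 without the 2 h and the 4 h pair).

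Il1b encodes interleukin-1 beta. Its levels were 4082, 9772, 10568 and 8864 CPM with LPS and 2736, 4780, 4952 and 5066 CPM with CpG B, against 281 CPM untreated. LPS was the higher at all 4 times, and the difference was just under a fold of 2 (0.97 ± 0.11, adjusted p = 1.8e-06), so the gene is not among the calls. Gm14047, a non-coding RNA of the opposite strand that is now named Il1bos, was called (1.48 ± 0.35, adjusted p = 0.013). Since the strand used in counting is not given in the sources used here, reads of the pair cannot be told apart.

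Tnf encodes the cytokine TNF. It was at 10110, 13942, 6656 and 3226 CPM with LPS and at 10445, 5104, 5898 and 3339 CPM with CpG B. The levels were close at 1, 4 and 6 h and apart at 2 h, and the difference over the times was not called (0.46 ± 0.16, adjusted p = 0.13). Il6 was at 42.2 to 408 CPM with LPS and at 92.2 to 351 CPM with CpG B, and was not called either (0.22 ± 0.19, adjusted p = 0.67). Il12b encodes the p40 subunit of interleukins 12 and 23. It was at 762, 4163, 10025 and 12517 CPM with LPS and at 2544, 6085, 11051 and 14134 CPM with CpG B. CpG B was the higher at every time, most at 1 h. The early difference was called (-1.04, adjusted p = 0.00051) but was -0.42 without the 1 h pair, and the late one was -0.05.

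Il10 encodes the anti-inflammatory interleukin-10. It was at 0, 2.52, 13.9 and 20.1 CPM with LPS and at 0, 2.80, 0 and 0 CPM with CpG B, and did not pass the filter of the moDC fit. The ratio of pooled counts, each over its pooled library totals, was 12.6, with an exact 95% counting interval of 1.91 to 532. This interval covers counting error alone, not the spread between libraries, and is not a test.

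Among 19 chemokine genes tested, Cxcl1, Cxcl2 and Cxcl10 were called higher with LPS and Ccl12 higher with CpG B, against 0.936% and 0.166% of genes tested, and the list's median was 0.019. Cxcl1 and Cxcl2 attract neutrophils. Cxcl2 was at 8299, 14539, 9767 and 4742 CPM with LPS and at 9234, 4679, 2997 and 2251 CPM with CpG B, against 353 CPM untreated. The ligands were close at 1 h, and from 2 h on LPS was the higher. Cxcl1 had the same order of levels, with 728, 1576, 657 and 238 CPM against 816, 415, 117 and 84.2 CPM. The differences were 1.16 ± 0.18 for Cxcl2 (adjusted p = 0.00015) and 1.40 ± 0.24 for Cxcl1 (adjusted p = 0.00062). Without the 4 h pair they were 0.92 and 1.07 with adjusted p of 0.14 and 0.18, Cxcl2 was 0.95 without the 2 h pair, Cxcl1 was 2.13 without the 1 h pair, and with DESeq2 their adjusted p was 0.19 and 0.17.

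Cxcl10 encodes an interferon-induced chemokine for T and NK cells. It was at 185, 723, 2415 and 2041 CPM with LPS and at 44.8, 81.2, 1997 and 1736 CPM with CpG B. LPS was well above CpG B at 1 and 2 h, and the levels were close at 4 and 6 h. The call over the times (1.13 ± 0.24, adjusted p = 0.0062) did not hold without the 1, 2 or 4 h pair, with 0.98, 0.62 and 1.53. Ccl12, a monocyte-attracting chemokine of the mouse, was at 23.7, 22.7, 47.1 and 35.1 CPM with LPS and at 29.0, 53.2, 102 and 146 CPM with CpG B. It differed by -1.21 ± 0.28 (adjusted p = 0.010) and by -0.84 without the 6 h pair, and was also not called without the 2 h or the 4 h pair (-1.23 and -1.32).

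Enzymes that make signalling molecules were also called. Nos2 encodes inducible nitric oxide synthase. It was at 5.27, 5.04, 208 and 464 CPM with LPS and at 0, 2.80, 75.1 and 217 CPM with CpG B, with a difference of 1.35 ± 0.24 (adjusted p = 0.00081, and 0.12 without the 4 h pair). Of 11 genes of the nitric oxide, itaconate and arginine list it was the only call. Ptgs2 encodes the cyclooxygenase that starts prostaglandin synthesis. It was at 58.0, 176, 299 and 259 CPM with LPS and at 89.5, 50.4, 84.1 and 97.2 CPM with CpG B, the order of the ligands turning between 1 and 2 h. The difference was 1.30 ± 0.25 (adjusted p = 0.0021), 1.02 without the 4 h pair (adjusted p = 0.25) and 1.25 with DESeq2 (adjusted p = 0.42). Hdc, which encodes the enzyme that makes histamine, was at 21.1, 63.0, 169 and 231 CPM with LPS and at 18.4, 16.8, 90.1 and 77.7 CPM with CpG B (1.33 ± 0.25, adjusted p = 0.0016).

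Genes of the cell surface and the matrix differed in both directions. Mmp13 encodes a collagenase. It was at 71.2, 151, 344 and 372 CPM with LPS and at 52.7, 84.0, 126 and 113 CPM with CpG B, against 2.49 CPM untreated, with a difference of 1.32 ± 0.19 (adjusted p = 6.6e-05). Plau encodes urokinase, which activates plasmin. It was at 92.3, 80.6, 11.1 and 10.0 CPM with LPS and at 269, 137, 42.0 and 29.1 CPM with CpG B, with a difference of -1.22 ± 0.25 (adjusted p = 0.0035, and 0.20 and 0.071 without the 1 h and the 4 h pair). In both genes the order of the ligands was the same at every time. They were the only calls among 23 matrix genes tested.

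Sdc4 encodes syndecan-4, a heparan sulfate proteoglycan of the cell surface. It was at 177, 612, 679 and 299 CPM with LPS and at 142, 221, 87.1 and 104 CPM with CpG B. The ligands were close at 1 h and farthest apart at 4 h, and the difference was 1.67 ± 0.22 (adjusted p = 1.6e-05, and 0.088 with DESeq2). H2-M2 encodes a class I-like molecule of the MHC. It was at 802, 1022, 1012 and 1195 CPM with LPS and at 421, 448, 402 and 677 CPM with CpG B, against 351 CPM untreated. The groups did not overlap, and the difference was 1.15 ± 0.13 (adjusted p = 9.0e-07). It was the only call among 24 antigen presentation genes tested, and PAM brought it to 452, 719, 1124 and 1176 CPM. Across the genes called higher with LPS, 20 of 62 had no overlap between the 4 LPS and the 4 CpG B libraries, and 68 of the 6626 genes tested had none in that direction (1.03%). As non-overlap and the call read the same contrast, the first count is a description of the calls.

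The largest fold changes belonged to low genes. In 10 of the 62 genes called higher with LPS, U90926 and Areg among them, fewer than 2 CpG B libraries reached the filter's 20 CPM, so that these genes entered the test through LPS, and both are given as values with no test. U90926, a long non-coding RNA gene, was at 2.64, 17.6, 63.8 and 65.3 CPM with LPS. With CpG B it had 3 counts in all, and the ratio of pooled counts, each over its pooled library totals, was 17.1 with an exact 95% counting interval of 5.55 to 85.2. That interval covers counting error alone, not the spread between libraries or the way the gene was selected, and is not a test. Areg encodes amphiregulin, a growth factor of the EGF family. It was at 42.2, 35.3, 8.32 and 5.02 CPM with LPS and at 2.80 to 10.5 CPM with CpG B. Chka encodes choline kinase alpha. It was at 335, 179, 77.6 and 85.4 CPM with LPS and at 68.5, 56.0, 51.1 and 51.8 CPM with CpG B, with LPS the higher at every time and most at 1 h (1.57 ± 0.24, adjusted p = 9.3e-05).

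The remaining calls higher with CpG B were of low to middle levels. Adra2a encodes an adrenergic receptor. It was at 21.1, 5.04, 13.9 and 22.6 CPM with LPS and at 18.4, 53.2, 90.1 and 48.6 CPM with CpG B, all under the untreated 105 CPM, so that LPS had the lower level from 2 h on. It differed by -1.59 ± 0.39 (adjusted p = 0.016, and 0.16 and 0.38 without the 2 h and the 4 h pair).

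Etv3 encodes a repressor of the ETS family. It was at 50.1, 52.9, 91.5 and 65.3 CPM with LPS and at 161, 86.8, 123 and 201 CPM with CpG B, against 32.4 CPM untreated (-1.04 ± 0.23, adjusted p = 0.0073, and -0.83 and -0.84 without the 1 h and the 6 h pair). Srsf5, a splicing factor gene, was at 25.1 to 55.4 CPM with LPS and at 74.5 to 126 CPM with CpG B (-1.12 ± 0.25). Rnf5, a ubiquitin ligase gene of the endoplasmic reticulum, was at 19.4 to 34.3 CPM with LPS and at 58.8 to 84.2 CPM with CpG B (-1.21 ± 0.27). Slx1b, a structure-specific nuclease gene, was at 25.2 to 50.2 CPM and 67.2 to 110 CPM (-1.23 ± 0.25). In these 3 genes the groups did not overlap, and without the 1 h pair their adjusted p was 0.18, 0.086 and 0.065. No overlap with CpG B above was found in 5 of the 11 calls and in 198 of the 6626 genes tested (2.99%). With LPS above it was found in 68 of the genes tested (1.03%). By this measure more genes leaned to CpG B, while the calls leaned to LPS. How far these counts without overlap depend on the scaling was not tested. DESeq2 called none of the 11 genes, and gave no adjusted p to 5 of them.

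**Figure D3:**
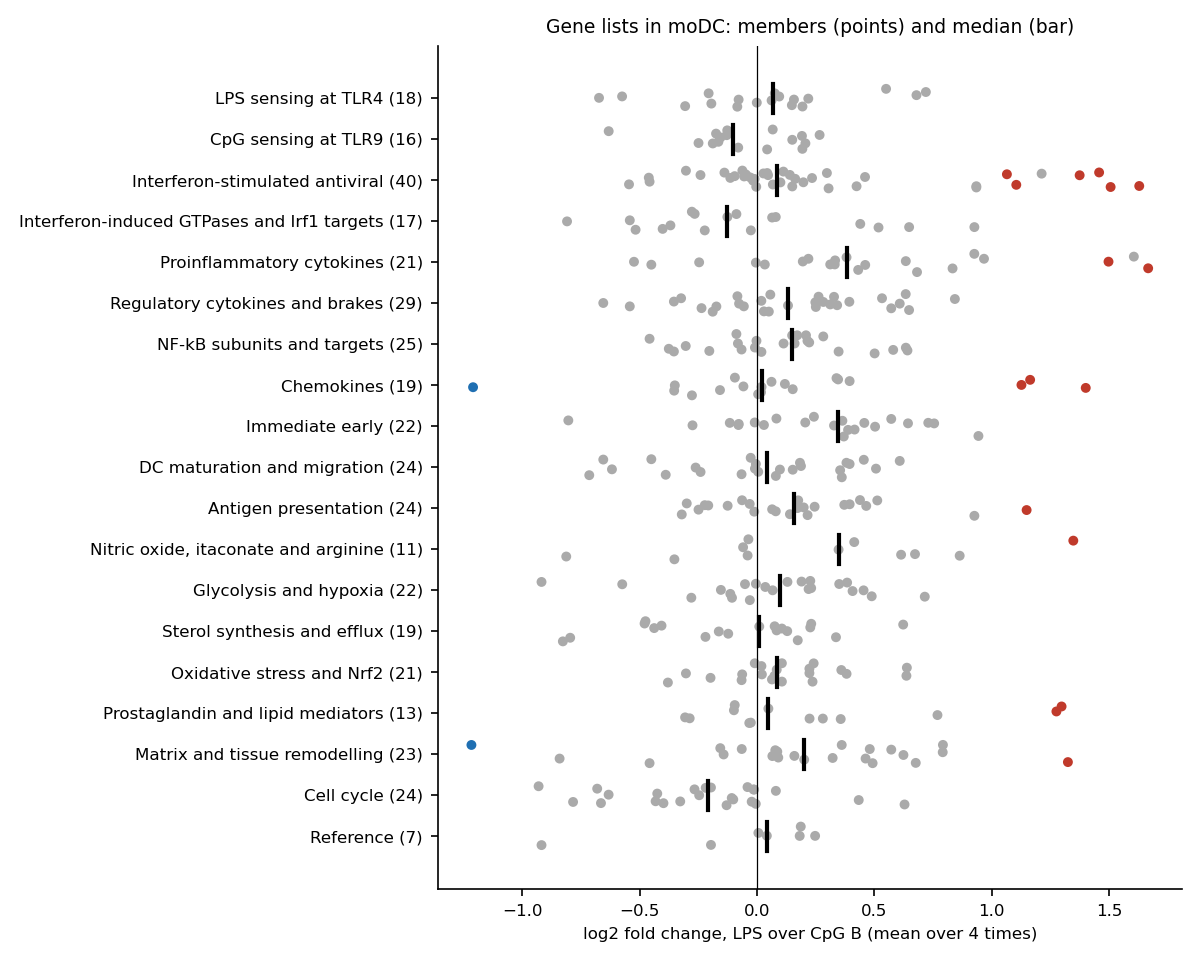
Log2 fold change of LPS over CpG B (mean over 4 times) of each tested member of 19 gene lists, with the number tested in brackets and the list median as a bar. Red and blue points are genes called higher with LPS and with CpG B. The interferon-stimulated antiviral list has 6 red points and a median of 0.08, the proinflammatory cytokines have the highest median (0.38), and the cell cycle list has the lowest (-0.21).

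Leaving out the interferon genes (1 tested) and reference genes (7 tested), also without a call, 11 response lists had no call over the 4 times. Together they held 226 tested genes, of which 52 had an unadjusted p below 0.05 and none was called over the times by edgeR or DESeq2. Of all 6626 genes tested, 960 had an unadjusted p below 0.05, a smaller share, and 1.1% were called by edgeR. The 11 lists cover both sensing routes, interferon-induced GTPases, regulatory cytokines, NF-kB subunits and targets, immediate early genes, maturation and migration, glycolysis, sterols, oxidative stress and the cell cycle. Some of their genes were called at 1 stage. Early, Hspa8 (1.04), a chaperone gene, and Klf6 (1.30), an immediate early factor gene, were higher with LPS, and the T cell ligand genes Tnfsf9 (-1.01) and Cd70 (-1.32) were higher with CpG B. Late, Cd14, Clec4e (1.11), the gene of a lectin receptor, Slc7a11 (1.03), the gene of a cystine transporter, and Mt2 (1.10), a metallothionein gene, were higher with LPS. Each of these stage calls was lost when at least 1 of the time pairs was left out. Of the 24 cell cycle genes 21 lay below 0, with a median of -0.21, and 3 had an unadjusted p below 0.05. Immediate early genes had a median of 0.35, with 16 of 22 above 0. Among all 6626 genes tested, 3396 lay below 0 and 3230 above it. The lean of these lists was not tested. Cebpb and Irf8, which encode transcription factors of myeloid and dendritic cells, were not called. Cebpb was at 380 to 547 CPM with LPS and at 518 to 633 CPM with CpG B, and Irf8 was at 187 to 535 CPM and 200 to 583 CPM.

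Pabpn1, Rbm25, Purb and Psd, picked after their values were seen, were below the untreated level at every time with CpG B. Pabpn1 encodes a nuclear poly(A)-binding protein. It was at 330, 287, 250 and 231 CPM with LPS and at 94.8, 129, 105 and 172 CPM with CpG B, against 353 CPM untreated. All 4 LPS libraries were above all 4 CpG B libraries, and the difference was 1.23 ± 0.18 (adjusted p = 5.3e-05). Rbm25, a splicing regulator gene, was at 287, 149, 191 and 211 CPM with LPS and at 73.7, 75.6, 96.1 and 133 CPM with CpG B, against 301 CPM untreated (1.23 ± 0.19, adjusted p = 0.00015, and 0.98 without the 1 h pair). Purb, which encodes a single-stranded DNA and RNA binding protein, was at 141 to 222 CPM with LPS and at 69.1 to 110 CPM with CpG B, against 254 CPM untreated (1.28 ± 0.20).

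Psd, which encodes an exchange factor for the small GTPase Arf6, was at 111 to 126 CPM with LPS and at 19.6 to 50.0 CPM with CpG B, against 105 CPM untreated (1.76 ± 0.25, adjusted p = 5.1e-05). Lars2, which encodes the mitochondrial leucyl-tRNA synthetase, was at 1110, 859, 1248 and 620 CPM with LPS and at 392, 275, 345 and 570 CPM with CpG B, against 510 CPM untreated. Lars2 with LPS was thus above the untreated level at every time, and at 6 h the ligands were close (1.36 ± 0.18, adjusted p = 1.2e-05). The same genes with PAM, which were not tested here, were at 164 to 237 CPM for Pabpn1, 93.9 to 145 CPM for Rbm25, 134 to 184 CPM for Purb, 41.0 to 77.6 CPM for Psd and 227 to 673 CPM for Lars2. In 24 of the 62 calls higher with LPS (38.7%) the untreated library was above all 4 CpG B libraries, close to the 34.2% of all genes tested. In 31 (50%) it was below all 4 LPS libraries, against 14.1% of all genes tested. As the 62 were selected for higher levels in these same LPS libraries, that count is a description of the calls.

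General measures of the libraries overlapped between the ligands. The nuclear RNA Malat1 was at 45.2 to 63.8 CPM with LPS and at 36.4 to 61.5 CPM with CpG B, and Neat1 at 541 to 1118 CPM and 639.6 to 1080 CPM. Cytosolic ribosomal protein genes summed to 17740 to 22020 CPM with LPS and to 17170 to 19150 CPM with CpG B, against 24210 CPM untreated, and the sum with LPS was the higher in every pair. The 10 most abundant genes held 15.1% to 18.5% of the counts with LPS and 14.8% to 17.9% with CpG B. The part of these measures in the results was not tested.

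The ligand difference changed over time in a few genes. At 1 and 2 h, 83 genes were called (1.25% of 6626), with 65 higher with LPS. At 4 and 6 h, 49 were called (0.74%), with 39 higher with LPS (0.589%), or 25 of 41 with column totals. Some of these stage calls entered the test through 1 ligand, such as Zfhx3 early and Esf1 late through LPS and Ifnb1 late through CpG B. The early and the late calls shared 9 genes, which is 10.8% of the early and 18.4% of the late calls, and all 9 had the same direction. DESeq2 called 14 genes early and 2 late. The difference of the late and early values was called in 7 genes (0.106%). Of these 6 moved towards CpG B (0.0906%) and 1 towards LPS (0.0151%).

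Cxcl10, Rsad2 and Isg15 had their larger difference early. Cxcl10 differed by 2.84 early and by 0.36 late, so the difference fell by 2.48 on the log2 scale. Rsad2 differed by 2.88 and 1.17, and Isg15 by 2.32 and 0.81. LPS was the higher in all 3 genes at both stages. The change of Cxcl10 was also called with DESeq2 and without the 1, 4 or 6 h pair. Without the 2 h pair it was -1.69 (adjusted p = 0.20), that of Rsad2 was -0.48 and that of Isg15 was -0.75. All 3 changes thus rested in large part on the 2 h pair. The change of Rsad2 was also not called without the 1 h pair. That of Isg15 was also not called without the 1 h or the 4 h pair. DESeq2 called neither of them.

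Early calls of the interferon-stimulated list were 7 of 40, all higher with LPS, against 0.981% of genes tested. Beside the 6 genes above they include Ifit1, which was at 15.8 and 184 CPM at 1 and 2 h with LPS and at 7.90 and 44.8 CPM with CpG B. It differed by 2.00 early, and by 0.99 without the 2 h pair. Without that pair none of the 7 was called early. Rsad2 and Oasl1 were the 2 late calls of the list. Without the 4 h pair their late differences were 0.85 and 0.91 and were not called.

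Ccr2 and Dok2 were close between the ligands early and lower with LPS late. Ccr2 encodes the chemokine receptor that brings monocytes out of the bone marrow. It was at 287, 141, 36.0 and 60.2 CPM with LPS and at 279, 151, 126 and 194 CPM with CpG B, against 431 CPM untreated. The late difference was -1.63 (adjusted p = 0.00032) and the early one 0.04. Dok2, an adaptor gene of blood cells, was at 461, 239, 55.4 and 62.8 CPM with LPS and at 358, 224, 153 and 152 CPM with CpG B, with a late difference of -1.26. Pld4, which encodes an endolysosomal exonuclease, had a late minus early value of -1.43. The late minus early values of Ccr2 and Dok2 were not called when any pair was left out, at -1.66 to -1.70 and -1.48 to -1.64, nor with DESeq2.

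Cxcl3 was the only gene to move towards LPS. This neutrophil-attracting chemokine gene was at 1168, 2607, 3438 and 2839 CPM with LPS and at 2838, 4230, 4400 and 1904 CPM with CpG B, the order turning between 4 and 6 h. Its difference was -0.91 early and 0.21 late, and the change of 1.12 was 0.77 without the 1 h pair and 0.70 without the 6 h pair, and its adjusted p with column totals was 0.076.

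**Figure D4:**
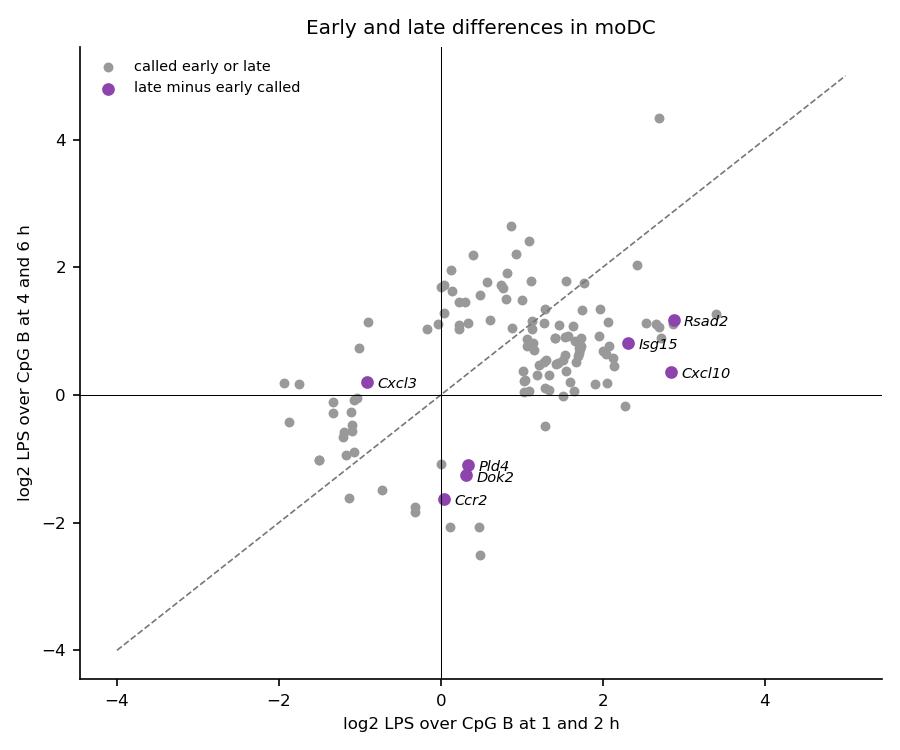
Log2 fold change of LPS over CpG B in moDC at 1 and 2 h (x axis) and at 4 and 6 h (y axis) of the genes called at either stage or in their difference. Purple points are the 7 genes whose late minus early value was called, and the dashed line marks equal values. Cxcl10, Rsad2 and Isg15 lie far right of the line, and Ccr2, Dok2 and Pld4 lie below zero on the late axis only.

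In pDC cultures the same contrast gave a different set of calls. In the fit of both culture types, 113 of 7992 genes were called in pDC (1.41%), of which 41 were higher with LPS (0.513%) and 72 with CpG B (0.901%). Of the 73 moDC calls, 5 were also called in pDC, all in the same direction. Among the 62 genes higher with LPS in moDC, 38 lay above 0 in pDC, with a median of 0.23. The matching share of all genes is not given here, so this count does not show whether the cultures agreed. A test of the difference between the culture types called 33 genes (0.413%). In 29 of them the value was more towards LPS in moDC than in pDC, and in 4 it was less so (0.0501%). With column totals 55 genes were called, split 29 to 26. Oasl1, Rsad2, Cxcl10 and Mmp13 were called higher with LPS in both culture types, at 1.48, 1.16, 1.35 and 1.39 in pDC, and BC037703 was called higher with CpG B in both.

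The largest differences between the cultures were in genes that pDC had at a higher level with CpG B than with LPS. Il12b in pDC was at 94.3, 95.5, 471 and 1141 CPM with LPS and at 1262, 5645, 12374 and 6942 CPM with CpG B. The pDC libraries with LPS were far under those with CpG B. In moDC CpG B was also the higher at every time, and the ligands were close at 4 and 6 h only. The contrast was -4.19 in pDC, and moDC lay 3.67 ± 0.50 above it (adjusted p = 0.00051). Lta, which encodes lymphotoxin alpha, was at 5.66 to 18.8 CPM with LPS and at 43.0 to 202 CPM with CpG B in pDC, and at 34.3 to 191 CPM and 36.9 to 133 CPM in moDC. Its difference between the cultures was 3.79 ± 0.43 (adjusted p = 7.6e-05), and it alone was called without the 4 h pair. Without that pair Il12b had 3.30 (adjusted p = 0.086), and the count of calls fell from 33 to 1.

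Il1b went the other way in each culture, higher with LPS in moDC (0.97 ± 0.11) and higher with CpG B in pDC (-1.07). The difference was 2.05 ± 0.34 (adjusted p = 0.0044, and 0.15 without the 4 h pair). Nfkbiz, which encodes an inhibitor-like cofactor of NF-kB, was at -0.08 in moDC and -2.12 in pDC, with a difference of 2.05 ± 0.34 (adjusted p = 0.0053). Pdzk1ip1 and 1100001G20Rik (now named Wfdc21) were close between ligands in moDC, at -0.29 and -0.17, and at -3.02 and -2.83 in pDC. Il10 was at 8.60 to 166 CPM with CpG B and at 2.22 to 21.0 CPM with LPS in pDC. Its fitted difference of 5.57 depends on the small value added to counts of 0 in moDC and has no bound.

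Of the genes called in moDC, 8 were also called as different from pDC, each more towards LPS in moDC: Pabpn1, Rbm25, Lars2, Psd, H2-M2, Prpf38b, Sdccag1 and Grap. Pabpn1 was at 103 to 236 CPM with LPS and at 121 to 220 CPM with CpG B in pDC, so the groups overlapped there. The difference between the cultures was 1.62 ± 0.30 for Pabpn1, 1.56 ± 0.30 for Rbm25, 1.53 ± 0.31 for Lars2, 2.00 ± 0.43 for Psd and 1.56 ± 0.35 for H2-M2. None of the 8 was called without the 4 h pair or without the 2 h pair, save Grap without the 2 h pair, and Psd was 1.34 without the 2 h pair.

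The 4 genes on the other side were Rgs14, Serpina3g, Txnip and D4Wsu53e (now named Rsrp1). Rgs14, a regulator of G protein signalling, was at 31.5 to 117 CPM with LPS and at 3.70 to 45.1 CPM with CpG B in pDC, and at 45.3 to 126 CPM and 47.6 to 174 CPM in moDC (difference -2.08 ± 0.41, adjusted p = 0.022). Txnip encodes an inhibitor of thioredoxin and of glucose uptake. In moDC it was at 129, 98.2, 152 and 151 CPM with LPS and at 253, 258, 273 and 211 CPM with CpG B, with no overlap, and in pDC LPS was the higher by 0.88, which missed a fold of 2. The difference was -1.69 ± 0.26 (adjusted p = 0.0029, and 0.072 without the 4 h pair). In Serpina3g, a serine protease inhibitor gene, the groups overlapped in both cultures, with a difference of -1.75 ± 0.34 that was -1.40 without the 4 h pair (adjusted p = 0.39).

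**Figure D5:**
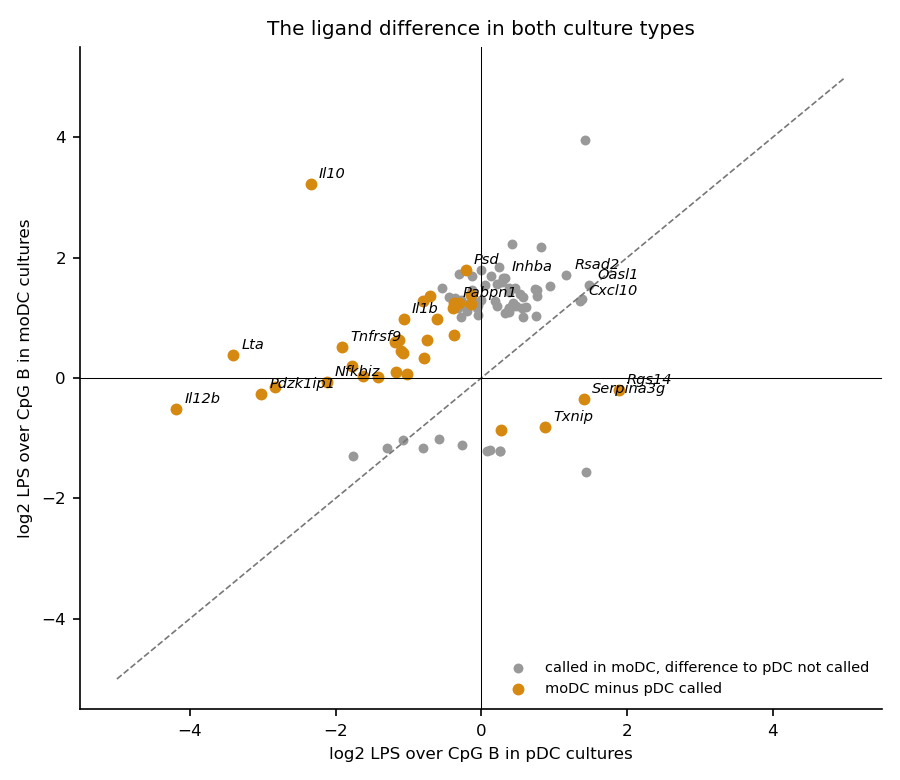
Log2 fold change of LPS over CpG B in pDC cultures (x axis) and in moDC cultures (y axis), from the fit of both, for genes called in moDC or called as different between the cultures. Orange points are the 33 genes with a called difference, and the dashed line marks equal values. Il12b, Lta, Pdzk1ip1 and Nfkbiz lie near 0 in moDC and far left in pDC, and Rsad2, Oasl1 and Cxcl10 lie near the line.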

How the data were processed

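The values are whole read counts for each gene symbol, deposited by the authors in 1 table of the stimulated and untreated libraries. The submitters' processing notes name TopHat and the build mm9, while for the tool that counted reads, its strand setting and filters nothing is given in the sources used here. The row without a gene name (0.365% to 0.938% of counts) was left out. Of 21637 symbols, 21400 matched the RefSeq table (GRCm38.p6), which gave names and promoters. A gene reaching 20 CPM in 2 or more libraries of a fit was tested with edgeR 4.0.16 (R 4.3.3), TMM scaling and a two-sided quasi-likelihood test, adjusted by Benjamini-Hochberg over all genes tested, and every adjusted p not given to DESeq2 is from it. Time was a block (3 residual degrees of freedom), with separate ligand effects for 1 and 2 h and for 4 and 6 h in a second fit, and culture type by time was the block for moDC against pDC. Alternatives were column totals, DESeq2 1.42.0, other filters, no time block, leaving out each pair and all 16 moDC libraries. Rows with identical counts, kept once, were an alternative chosen after seeing the data. Counting intervals are exact binomial ones. Members and lists were chosen with earlier results of these data known. Named genes are the 12 largest calls per direction with 1 sign in all pairs, receptors, 10 set genes, up to 4 members of a list and 5 calls per direction of each difference. The text names part of these. Ifit1, Pld4, Nfkbiz, the calls named only in groups and the genes picked to stand near the untreated level were named after their values were seen. A result on 1 called gene is not reported here.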

Additional observations from a re-analysis of the deposited data

Results flagged for a closer look

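In 6 named genes the ligand difference was not the same late as early, by a test of the difference. The late minus early value (log2 LPS over CpG B) was -2.48 for Cxcl10, -1.71 for Rsad2, -1.67 for Ccr2, -1.57 for Dok2, -1.50 for Isg15 and 1.12 for Cxcl3. Of these, DESeq2 called Cxcl10 alone.

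In 9 named genes the ligand difference was not the same in moDC as in pDC cultures, by a test of the difference. The moDC minus pDC value was 3.79 for Lta, 3.67 for Il12b, 2.75 for Pdzk1ip1 and 2.68 for 1100001G20Rik. It was -2.08 for Rgs14, -1.75 for Serpina3g, -1.69 for Txnip and -1.13 for D4Wsu53e. Without the 4 h pair Lta was still called and the other 8 were not. The fitted value of Il10 (5.57) depends on the small value added to counts of 0 in moDC and is no measured size.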

How the results depend on the processing

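All 73 calls over the times, where tested, kept their direction under each alternative run. DESeq2 called 23 genes over the times, 2 late, 14 early and 1 for late minus early. With no time block 0 were called over the times. All 16 moDC libraries in 1 fit gave 14 calls over the times, 0 late, 4 early and 0 for late minus early. Late minus early had 2 calls with at least 4 libraries at the minimum and 13 with no filter on low counts. The moDC minus pDC calls were 55 with column totals and 102 with no filter. When 1 time pair was left out, the calls ranged from 25 to 114 over the times, 5 to 70 late, 6 to 98 early, 1 to 10 for late minus early and 1 to 35 for moDC minus pDC. The lowest counts came without the 4 h pair over the times, late and for moDC minus pDC, without the 2 h pair early and without the 1 h pair for late minus early. A left-out pair takes away 1 residual degree of freedom, and the cause of each loss was not tested. Of values named in the text, 5 near 0 and not called crossed 0 when a pair was left out: Lta (-0.14 to 0.71), Rgs14 (-0.38 to 0.02) and Pdzk1ip1 (-0.59 to 0.07), without the 4 h pair, Tlr4 (-0.26 to 0.02), without the 1 h pair, and Ly96 (-0.54 to 0.08), without the 2 h pair. These ranges are over the 4 pairs left out. Il1b passed a fold of 2 without the 1 h pair (1.09) and without the 6 h pair (1.00). No paired analysis was possible because the labels give no replicate numbers, and the pairs used are times. At 308754 to 398351 counts a library, genes under about 20 CPM rest on fewer than 10 counts.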
